A study of Homo sapiens with 3 samples.

Results

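Among the p300/CBP peaks called in control MDA-MB-231 cells, 547 wide peaks had no counterpart after depletion of Fra-1. They are the peaks of at least 250 bp on chromosomes 1 to 22 and X in the siCTL list that share no base with any peak of the siFra-1 list, and they are called lost peaks here. The siCTL list holds 82762 peaks on these chromosomes, of which 3644 reach 250 bp, so that 15.0% of the wide peaks were lost and 3097 were kept (95% Wilson interval of the lost share 13.9 to 16.2%). The siFra-1 list holds 39167 peaks on these chromosomes, of which 5968 reach 250 bp. The members were chosen by width and by overlap with the siFra-1 list, and their number, widths and distances to siFra-1 peaks are given as a description.

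Fra-1, the product of FOSL1, is a Fos family protein that joins a Jun partner in AP-1, a dimer that reads the palindromic heptamer TGAGTCA or TGACTCA. The lysine acetyltransferases p300 and CBP do not read DNA themselves and are brought to enhancers and promoters by transcription factors, where they acetylate histones. In epithelial and breast cancer cells AP-1 often shares enhancers with the TEAD factors of the Hippo pathway and with RUNX and ETS factors.

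MDA-MB-231 is an established human line of triple-negative breast cancer of the basal B type with abundant Fra-1. They were transfected either with control siRNA (siCTL) or with 3 mixed siRNAs against Fra-1 (siFra-1), at 4.5 nM in both cases, and fixed for 7 min after 72 h for immunoprecipitation of p300/CBP and sequencing. Replicate immunoprecipitations were pooled, which leaves 1 library and 1 peak list per condition, and the input sample was not analysed here. No difference between conditions could therefore be set against a spread between replicates, no test across conditions was possible, and every interval given below is a 95% interval of counting error over peaks, neighbours among which are not independent. The lists give positions on hg19 without heights, the depth of the libraries is unknown, and a peak that fell just under the calling threshold in siFra-1 is counted as lost.

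Of the 9 lost peaks with 3 AP-1 motifs each, 4 are printed first, since AP-1 is the motif that Fra-1 reads. By the naming rule given with the methods, these members lay in an intron of a long noncoding RNA gene upstream of SLC6A20 (chr3:45859252-45859851) and in introns of ABHD2 (chr15:89710952-89711351), AHNAK (chr11:62321402-62321751) and SLC35F4 (chr14:58300002-58300351). The following stretches are read from GRCh37, plus strand, 5′ to 3′, with each TGAGTCA or TGACTCA in capitals, as the 300 bases of each peak with the most motifs (chr3:45859431-45859730, chr15:89710987-89711286, chr11:62321452-62321751 and chr14:58300048-58300347).
SLC6A20 peak: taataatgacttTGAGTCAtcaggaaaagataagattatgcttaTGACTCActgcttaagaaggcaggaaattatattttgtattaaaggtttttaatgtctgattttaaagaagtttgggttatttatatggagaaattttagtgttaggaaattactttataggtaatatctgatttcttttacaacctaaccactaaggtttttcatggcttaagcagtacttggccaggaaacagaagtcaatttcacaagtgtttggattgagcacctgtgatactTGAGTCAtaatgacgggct
ABHD2 peak: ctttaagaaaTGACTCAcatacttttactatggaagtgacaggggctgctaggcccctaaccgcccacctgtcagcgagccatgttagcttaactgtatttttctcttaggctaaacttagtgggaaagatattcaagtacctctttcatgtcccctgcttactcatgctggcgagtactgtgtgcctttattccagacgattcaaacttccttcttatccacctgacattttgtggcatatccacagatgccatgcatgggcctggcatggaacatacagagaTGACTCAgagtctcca
AHNAK peak: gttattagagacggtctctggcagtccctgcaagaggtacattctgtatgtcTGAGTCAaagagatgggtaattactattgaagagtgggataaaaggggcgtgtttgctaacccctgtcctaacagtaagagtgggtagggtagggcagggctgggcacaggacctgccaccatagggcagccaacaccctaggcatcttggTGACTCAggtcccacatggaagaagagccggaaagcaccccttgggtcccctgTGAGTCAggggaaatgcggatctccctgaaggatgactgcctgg
SLC35F4 peak: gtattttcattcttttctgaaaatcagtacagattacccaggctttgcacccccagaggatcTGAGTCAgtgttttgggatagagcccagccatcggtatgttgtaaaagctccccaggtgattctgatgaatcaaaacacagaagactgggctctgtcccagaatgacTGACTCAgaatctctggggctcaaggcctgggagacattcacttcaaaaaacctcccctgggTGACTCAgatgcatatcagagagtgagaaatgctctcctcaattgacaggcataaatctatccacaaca
The motifs of these 4 peaks are spaced apart, with starts 32 and 237 bases apart near SLC6A20, 151 and 53 in AHNAK and 62 for the closest pair in SLC35F4. Between 0 and 0.306% of the 24-base words of each peak occur more than 10 times in the genome. The window in ABHD2 holds 2 of the 3 motifs of its peak, 274 bases apart.

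The widest lost peak and lost peaks near 3 genes of the lists described below are shown for comparison, with 1 or 2 AP-1 motifs each. The widest lies between genes, 37.2 kb upstream of the start site of ANO1, which codes for a calcium-activated chloride channel (chr11:69794452-69795251, shown as chr11:69794628-69794927). The others lie in an intron of HMGA1, a chromatin architectural protein gene (chr6:34211002-34211251), 6.45 kb upstream of DUSP1, a phosphatase gene of MAP kinase feedback (chr5:172204502-172204801), and 20.8 kb upstream of CDCP1, the gene of a transmembrane protein of cell migration (chr3:45208552-45208851). Capitals again mark AP-1 motifs.
ANO1 peak: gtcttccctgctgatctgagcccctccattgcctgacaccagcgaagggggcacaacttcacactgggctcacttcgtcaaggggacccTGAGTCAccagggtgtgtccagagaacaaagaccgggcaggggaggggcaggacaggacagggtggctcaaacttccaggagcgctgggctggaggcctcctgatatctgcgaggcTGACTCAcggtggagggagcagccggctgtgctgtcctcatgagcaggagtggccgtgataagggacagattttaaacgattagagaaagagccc
HMGA1 peak: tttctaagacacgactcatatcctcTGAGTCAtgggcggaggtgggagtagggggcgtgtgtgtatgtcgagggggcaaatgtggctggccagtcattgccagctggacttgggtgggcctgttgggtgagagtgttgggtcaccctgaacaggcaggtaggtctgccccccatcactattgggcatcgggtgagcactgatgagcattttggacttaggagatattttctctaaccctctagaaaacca
DUSP1 peak: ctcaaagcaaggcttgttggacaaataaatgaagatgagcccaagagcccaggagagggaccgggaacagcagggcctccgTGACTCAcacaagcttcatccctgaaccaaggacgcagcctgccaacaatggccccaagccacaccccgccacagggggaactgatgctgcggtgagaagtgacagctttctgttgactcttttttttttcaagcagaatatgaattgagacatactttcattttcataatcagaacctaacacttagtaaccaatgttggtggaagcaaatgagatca
CDCP1 peak: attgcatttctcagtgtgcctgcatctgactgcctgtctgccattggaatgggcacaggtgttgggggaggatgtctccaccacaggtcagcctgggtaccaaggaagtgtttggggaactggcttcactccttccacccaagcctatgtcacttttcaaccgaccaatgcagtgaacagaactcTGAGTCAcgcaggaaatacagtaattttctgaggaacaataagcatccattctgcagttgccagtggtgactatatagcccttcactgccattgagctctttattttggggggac
The ANO1 motifs start 116 bases apart. The CDCP1 motif lies towards the end of its peak, from base 186, and the HMGA1 motif close to the beginning, from base 26.

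The last set is shown because CAGGTG, the E-box read by the repressors ZEB1 and SNAI1 among others, was, of the 16 motifs searched, the single one with an interval above 0 for lost minus kept peaks. Both peaks lack AP-1. The first covers the start of ZEB1 itself, the gene of a driver of the mesenchymal state (chr10:31607202-31607501), and the second, chosen after its values were seen among the members with 3 of these E-boxes, lies in an intron of CDC42EP1, which codes for an effector of the GTPase CDC42 (chr22:37958152-37958401). Capitals mark CAGGTG or its reverse complement CACCTG.
ZEB1 peak: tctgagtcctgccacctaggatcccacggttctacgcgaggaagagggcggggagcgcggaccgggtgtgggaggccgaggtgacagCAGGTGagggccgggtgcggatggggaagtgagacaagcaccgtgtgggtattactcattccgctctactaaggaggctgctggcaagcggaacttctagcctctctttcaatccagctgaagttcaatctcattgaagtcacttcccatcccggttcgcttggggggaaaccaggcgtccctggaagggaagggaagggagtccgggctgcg
CDC42EP1 peak: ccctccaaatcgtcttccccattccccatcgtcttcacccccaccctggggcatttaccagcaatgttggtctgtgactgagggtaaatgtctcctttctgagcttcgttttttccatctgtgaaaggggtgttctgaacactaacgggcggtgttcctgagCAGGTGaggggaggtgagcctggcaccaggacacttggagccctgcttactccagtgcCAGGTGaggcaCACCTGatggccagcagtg
The CDC42EP1 peak holds 3 E-boxes, which start at bases 163, 221 and 232, the last on the opposite strand. The ZEB1 peak holds 1, from base 88.

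Lost peaks were the narrow end of the wide peaks. Of the 547, 325 were 250 bp wide and 119 were 300 bp wide, together 81.2% of the lost against 36.9% of the kept peaks. The share lost fell with width from 33.9% at 250 bp (325 of 959) to 18.9% at 300 bp, 10.9% at 350 bp, 5.85% at 400 bp and 1.92% at 500 bp and over (15 of 781). Just outside the rule, 1305 of 2068 peaks of 200 bp shared no base with a siFra-1 peak (63.1%), and 43 wide peaks were kept by sharing exactly 50 bp, the smallest step of these lists. For 199 kept peaks the overlap was with siFra-1 peaks of 100 bp, the smallest peak called, alone. Because width decided so much, the kept peaks are weighted to the widths of the lost ones in the differences given below, except where values are said to be unweighted.

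**Figure D1:**
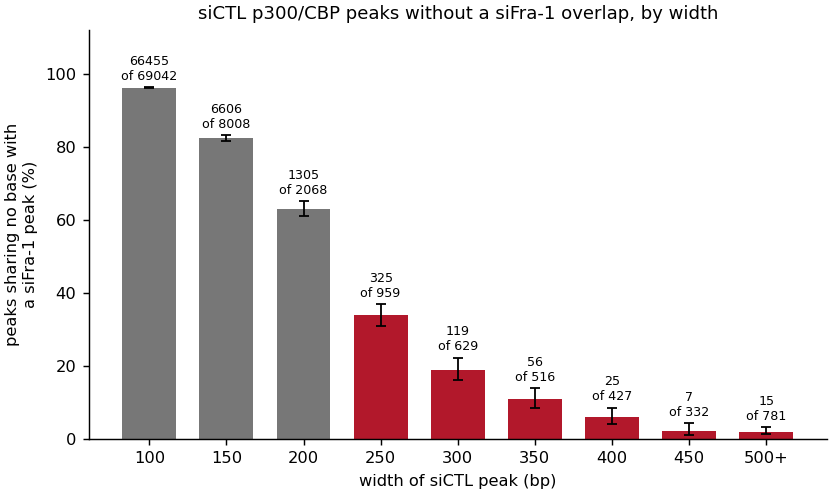
Share of siCTL peaks that share no base with a siFra-1 peak (%), by peak width in bp. Bars give the share with its 95% Wilson interval, numbers give lost of all peaks of that width, and red bars mark the wide peaks described here, whose share falls from 33.9% at 250 bp to 1.92% at 500 bp and over.

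In many members p300/CBP was still called close by after Fra-1 depletion. A siFra-1 peak abutted 22 lost peaks, lay within 200 bp of 79 (14.4%) and lay within 1 kb of 152 (27.8%). At the other end, 224 lost peaks (41.0%) had no siFra-1 peak within 10 kb and 27 had none within 100 kb. The median distance was 5.95 kb, with quartiles of 0.750 and 21.1 kb and a maximum of 311 kb. The lost peaks thus include peaks with siFra-1 signal next to them as well as peaks whose surroundings hold no siFra-1 peak, and counting the 79 within 200 bp as shared left 468 members, 12.8% of the wide peaks.

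**Figure D2:**
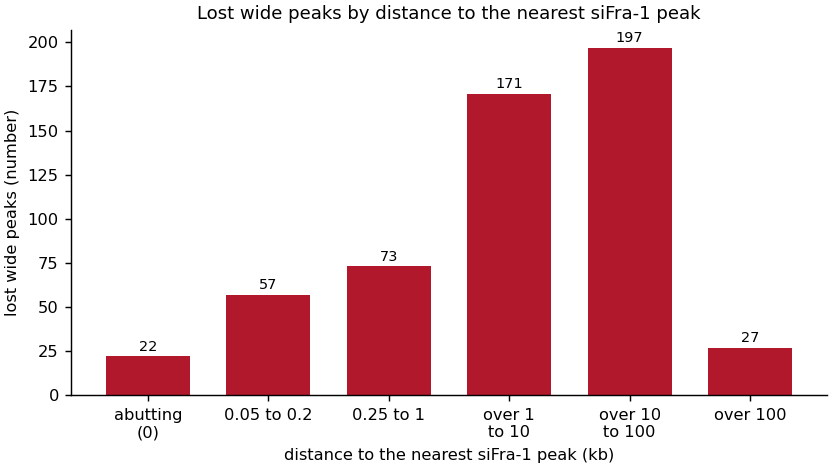
Number of lost wide peaks by the distance from the peak edge to the nearest siFra-1 peak, in kb. The bars count 22 abutting peaks, 57 at 0.05 to 0.2 kb, 73 at 0.25 to 1 kb, 171 over 1 to 10 kb, 197 over 10 to 100 kb and 27 farther away.

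Most of the widest members had a siFra-1 peak within 1 kb. The 800 bp peak upstream of ANO1 had a siFra-1 peak 0.05 kb away, and the 600 bp peak upstream of SLC6A20, which codes for a transporter of proline and related imino acids, had one at 0.1 kb. Of 2 peaks of 550 bp, the one in ZBTB38, a methyl-CpG binding zinc finger gene, had one at 0.45 kb and the one in FAM24B at 1.45 kb. Among the widest peaks of 500 bp, those in STK40 (chr1:36839902-36840401), in LINC03063 downstream of CDC42EP3 (chr2:37788752-37789251) and in a noncoding RNA gene upstream of JARID2 (chr6:14733652-14734151) lay 0.15, 0.35 and 0.55 kb from a siFra-1 peak. Those in MAGI1 (chr3:65949402-65949901), a scaffold gene of cell junctions, in ERGIC1 (chr5:172358102-172358601) and upstream of INSIG1 (chr7:155021852-155022351), a regulator of cholesterol synthesis, lay 7.25, 10.4 and 10.1 kb away. The peak in RGS10 (chr10:121281252-121281751), a gene of G protein signalling, had 2 AP-1 and 2 TEAD motifs and a siFra-1 peak at 0.9 kb. One of the widest peaks lies near the centromere of chromosome 10 (chr10:42377102-42377601), where its 500 bases hold 47 copies of GGAATG, a satellite repeat of which 36.5% of the words occur more than 10 times in the genome.

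AP-1 was the most frequent of the 16 motifs in the lost peaks, though no more frequent there than in kept peaks of the same widths. TGAGTCA or TGACTCA occurred in 169 lost peaks (30.9%, interval 27.2 to 34.9%), in 4.39% of windows of the same widths moved by 2 kb, and in 34.9% of kept peaks, a difference of -3.95 percentage points whose interval runs from -8.50 to 0.60. Without peaks within 1 Mb of large assembly gaps the difference was -6.51 points (-11.3 to -1.74), while at 350 bp and over it was 1.31 (-8.78 to 11.4). Wide siFra-1 peaks without a siCTL overlap, weighted likewise, held it less often than lost peaks by 13.9 points (interval 9.56 to 18.3). The loose form TGANTCA was rarer in lost than in kept peaks, at 39.3 against 45.5% (difference -6.22 points, interval -11.0 to -1.41).

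The number of AP-1 motifs divided the lost peaks differently from the kept ones. Among the lost peaks 378 had none, 122 had 1, 37 had 2, 9 had 3 and 1 had 4, which makes 227 motifs. A single motif was found in 22.3% of lost and 29.1% of kept peaks (difference -6.81 points, interval -11.0 to -2.64), while 2 or more were found in 8.59 and 5.74% (difference 2.85 points, interval 0.26 to 5.44). In the central 200 bp alone the latter difference was 2.06 points (-0.07 to 4.19), and at 350 bp and over it was 12.2 points (4.15 to 20.3). At 350 bp, 12 of 46 siCTL peaks with 2 or more motifs were lost (26.1%, interval 15.6 to 40.3%), against 13 of 181 with 1 (7.18%, 4.25 to 11.9%) and 31 of 289 with none (10.7%). At 250 bp the shares were 35.7, 24.4 and 36.8%, and at 300 bp 22.2, 21.6 and 17.3%, so the order of the 3 classes was not the same at every width. Unweighted, neighbouring motifs within a lost peak started 58.5 bases apart in the median over 58 pairs, against 77.0 bases over 383 pairs in kept peaks, which are wider. In peaks of 250 and 300 bp, unweighted, 50.7% of the 152 motifs of lost peaks lay within 50 bp of the centre, against 44.7% of the 459 in kept peaks and 38.1 and 37.4% for an even spread.

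The motifs of other enhancer factors were rarer in lost peaks. The TEAD core GGAATG was present in 22.3% of lost and 36.8% of kept peaks, a difference of -14.4 points (interval -18.7 to -10.2). The RUNX core TGTGGT was present in 23.4 against 29.6% (-6.17 points, interval -10.4 to -1.95), the forkhead motif TGTTTAC in 4.94 against 9.18% (-4.25 points, -6.57 to -1.92), the ETS core CCGGAA in 5.12 against 8.04% (-2.92 points, -5.20 to -0.64) and the NF-kB consensus in 0.73 against 2.13% (-1.39 points, -2.38 to -0.41). At 350 bp and over the intervals for RUNX (-18.0 to 0.257), forkhead (-9.97 to 0.441) and ETS (-8.00 to 3.49) included 0. Unweighted, GGAATG was present in 23.8% of windows moved by 2 kb from kept peaks and in fewer of those moved from lost peaks. For TGTGGT these shares were 24.4 and 18.1%. Windows from kept peaks are wider, so how much of the TEAD and RUNX differences lies in the surrounding sequence was not tested. None of AP-1, TEAD, RUNX and ETS was found in 39.9% of lost and 24.6% of kept peaks (difference 15.2 points, interval 10.6 to 19.9). Of all wide siCTL peaks, 25.2% of those with neither AP-1 nor TEAD were lost, 13.2% of those with AP-1 alone, 8.36% of those with TEAD alone and 7.68% of those with both. At 250 bp, where width is equal, these shares were 42.6, 26.1, 23.3 and 26.6%, and the intervals of peaks with AP-1 alone (upper bound 32.6%) and with TEAD alone (29.5%) lay below that of peaks with neither (38.3 to 47.0%).

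CAGGTG went the other way. It was present in 158 lost peaks (28.9%) and in 18.2% of kept peaks, a difference of 10.7 points (interval 6.45 to 14.9). It was present in 25.4% of windows moved by 2 kb from lost peaks, which lies within the interval of the lost peaks themselves (25.2 to 32.8%). Unweighted, kept peaks also held it in 25.4%, which was less often than windows moved by 2 kb from them. How much of the difference between lost and kept peaks lies in a scarcity of CAGGTG in kept peaks was not tested. Wide siFra-1-only peaks held it in 13.1%. The other motifs searched, C/EBP, the GATA motif written as AGATAA, the GC box GGGCGG, the MYC-type E-box CACGTG, the CRE, the SMAD palindrome, the CTCF core and 2 longer AP-1 forms, had differences whose intervals included 0. GC content was 47.7% in lost and 48.0% in kept peaks (difference -0.35 points, interval -1.18 to 0.47).

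**Figure D3:**
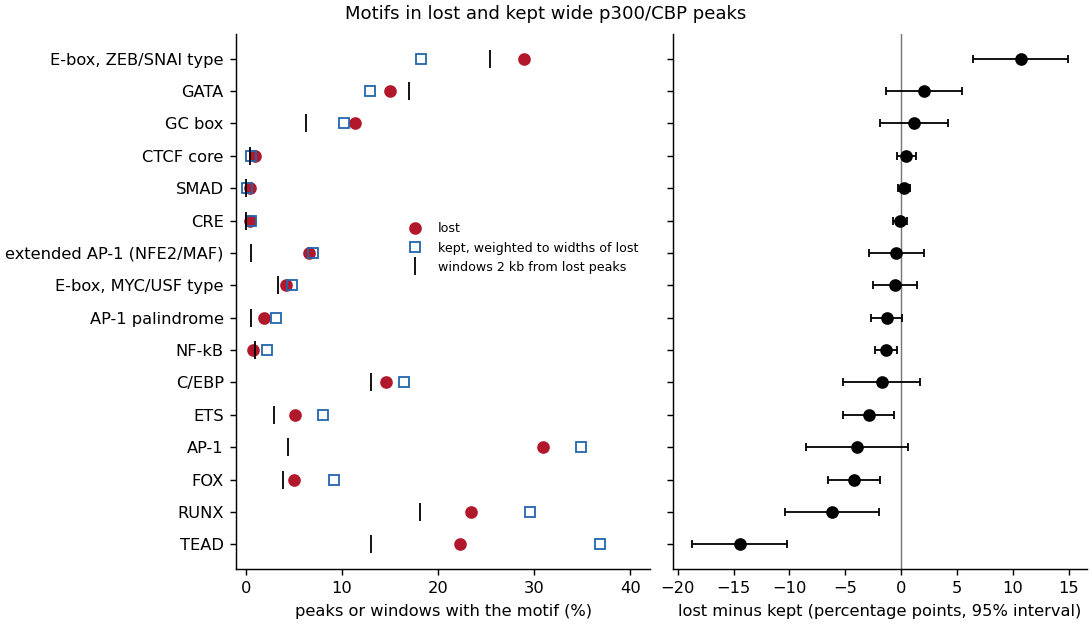
Left, share of lost peaks (red), of kept peaks weighted to the same widths (open squares) and of windows 2 kb from lost peaks (ticks) that hold each of 16 motifs, in %. Right, lost minus kept in percentage points with 95% intervals, lowest for TEAD with 22.3 against 36.8% and highest for the ZEB/SNAI type E-box with 28.9 against 18.2%.

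**Figure D4:**
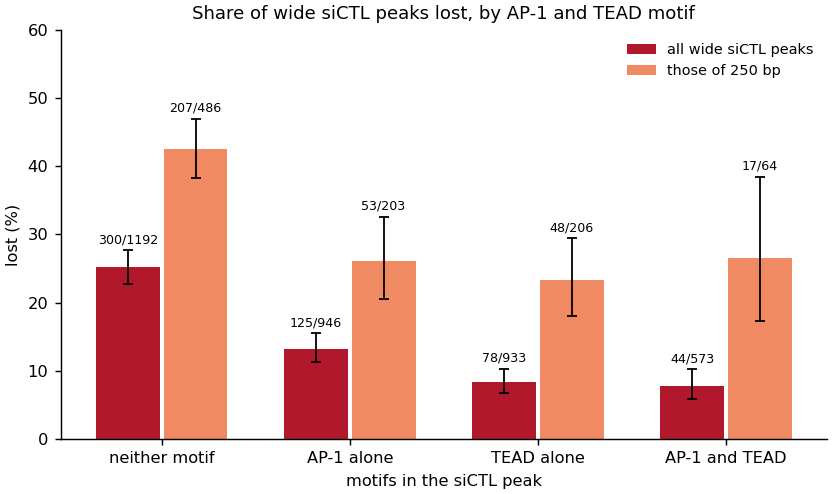
Share of wide siCTL peaks that were lost (%), by whether the peak holds AP-1 and TEAD motifs, for all widths (dark bars) and for peaks of 250 bp (light bars), with 95% Wilson intervals and lost of all peaks above each bar. Peaks with neither motif were lost most often, at 25.2% over all widths and 42.6% at 250 bp.

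Repeated sequence moved with several of these values. In 74 lost (13.5%) and 10.3% of kept peaks at least 25% of the 24-base words occurred more than 10 times in the genome (difference 3.22 points, interval -0.08 to 6.51). Within these, unweighted, GGAATG was present in 16.2% of lost and 59.8% of kept peaks, and CAGGTG in 40.5 and 16.4%. Without them, over 473 lost and 2883 kept peaks, the TEAD difference was -11.6 points (interval -16.2 to -7.09), the CAGGTG difference 8.15 points (3.67 to 12.6) and the AP-1 difference -3.73 points (-8.70 to 1.24).

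Lost peaks lay mostly away from promoters, and somewhat more of them than of kept peaks had a gene start within 10 kb. From the peak centre to the closest protein-coding start site (TSS) the unweighted median distance was 47.9 kb for lost and 55.2 kb for kept peaks, and 113 lost peaks (20.7%) lay within 10 kb against 15.4% of kept peaks (difference 5.26 points, interval 1.40 to 9.12). More than 100 kb away lay 32.7% of lost and 39.4% of kept peaks (difference -6.70 points, -11.4 to -2.04). This difference was -1.62 points without the repeat-rich peaks (-6.58 to 3.35). Without peaks within 1 Mb of large assembly gaps it was -2.00 points (-6.70 to 2.71). By their centres, 313 lost peaks were intronic (57.2%), 52 exonic and 182 between genes (33.3%). The share between genes differed from that of kept peaks by -4.61 points (-9.28 to 0.05), and by 1.52 points without peaks near large gaps (-3.19 to 6.23).

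Promoters, taken as 3 kb windows centred on protein-coding TSSs, were reached by 41 lost peaks, 7.50% against 4.70% of kept peaks (difference 2.80 points, interval 0.34 to 5.26). With windows of 1 kb the difference was 1.03 points (-0.80 to 2.85). The 41 lost promoter peaks had a median GC content of 60.7%, and the other lost peaks one of 46.8%. Of the 41, 7 held AP-1, 14 held CAGGTG and 24 had a siFra-1 peak within 10 kb. These values were not compared with those of the 136 kept promoter peaks. The promoter genes are grouped by role for reading, and no role was tested. Of the 41 lost peaks, 3 are put under invasion and the mesenchymal state. The centre of the ZEB1 peak lies 0.072 kb upstream of the TSS. That of PLAUR, the urokinase receptor, lies 1.27 kb inside the gene. That of GPC1, a heparan sulphate proteoglycan, lies 1.35 kb upstream, and its peak holds 2 AP-1 motifs. The nearest siFra-1 peaks to these 3 lay 6.85, 0.75 and 46.2 kb away. Others belong to genes of growth arrest, with GADD45A, a gene of the DNA damage response, at 1.59 kb inside the gene with 1 AP-1 motif and no siFra-1 peak within 73.7 kb, and CDKN2D, a cyclin-dependent kinase inhibitor, at 0.392 kb upstream. Genes of signalling and metabolism include RELB, an NF-kB subunit, at 1.23 kb, TIPARP, a poly-ADP-ribose polymerase, at 1.1 kb with the nearest siFra-1 peak at 142 kb, CHST11, a chondroitin sulfotransferase, at 0.071 kb, GAPDH, the glycolytic enzyme, at 0.949 kb, and CHKA, choline kinase, at 0.741 kb upstream with a peak of 500 bp. The remaining promoters were those of DR1, PSRC1, RSBN1, AL136376.1, GPR39, MARCHF4, TAF11L4, TAF11L9, CMTR1, CCDC167, PEX6, MKLN1, TOR4A, TM9SF3, SBF2, POLR2G, SLC25A45, GDPD4, GALNT6, RASA3, IPO4, TOGARAM1, BTBD6, SNUPN, UBALD2, SEC14L1, WDR62, ZNF850, FPR2, ARFGEF2 and TNFRSF6B, by the nearest TSS.

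Lost peaks stood alone more often than kept peaks. Another siCTL peak of at least 250 bp lay within 10 kb of 108 lost peaks, 19.7% against 36.4% of kept peaks (difference -16.7 points, interval -20.9 to -12.6), and within 50 kb of 40.2 against 54.6%. Counting siCTL peaks of any width, lost peaks had 2.26 others within 10 kb and kept peaks 4.78. At 250 bp, 20.7% of siCTL peaks with such a neighbour were lost and 39.8% of those without, and at 300 bp 11.9 and 22.1%. Of lost peaks 4.20%, but of kept peaks 10.8%, lay near (within 1 Mb of) large gaps in the assembly. The difference within 10 kb was -10.7 points without these (-14.9 to -6.53) and -13.5 points without the repeat-rich peaks.

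A kept wide peak lay within 10 kb of 88 lost peaks (16.1%) and another lost peak within 10 kb of 22 (4.02%). Within 50 kb these counts were 188 and 50. Lost peaks make up only 15.0% of all wide peaks, so most neighbours at that share would be kept ones. Whether the counts depart from that share was not tested. No other wide peak lay within 50 kb of 327 lost peaks (59.8%). With gaps of up to 50 kb, 50 lost peaks formed 24 runs, of which only 2 had 3 members. The first, over 60.8 kb in PDE4DIP (chr1:144996202-145057001), a gene of the centrosome and Golgi, also holds 1 kept peak, and 1 of its 3 members has 64.8% of repeated words. The second, over 13.7 kb near TPTE (chr21:11050702-11064351), lies within 1 Mb of a large assembly gap and 2 of its 3 members have 52.3 and 67.0% of repeated words.

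Of the lost peaks 276 (50.5%) were centred in a protein-coding gene, 89 in noncoding genes alone and 182 in no gene. They fell in 280 protein-coding genes, overlapping ones included, of which 262 held 1 lost peak, 15 held 2, and PDE4DIP, RAD51B and RUNX1 held 3. RAD51B, a gene of homologous recombination that spans 910 kb, also held 5 kept wide peaks, and 2 of its lost peaks abutted a siFra-1 peak. RUNX1, the gene of a factor whose own motif was searched here and annotated over 1217 kb, held 7 kept wide peaks beside lost peaks at chr21:36511052-36511401, chr21:36551152-36551501 and chr21:36604952-36605301. Each of these was 350 bp wide and held 1 CAGGTG, both outer peaks held 1 AP-1 motif, and the nearest siFra-1 peaks lay 1.45, 13.2 and 0.2 kb away. By chromosome the share lost ran from 6.52% on X (3 of 46) to 24.1% on 21 (14 of 58), and of 23 intervals only those of chromosome 11 (20.7%, 15.4 to 27.1%) and chromosome 15 (25 of 104, 16.8 to 33.1%) lay above the overall share of 15.0%.

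Around genes with known roles in invasive breast cancer cells, the 13 lists held between 0 and 2 lost peaks each. For each list with wide peaks nearby, the share lost had an interval that included the share at which all wide peaks of the same widths were lost. Among the factors, 0 of 23 wide siCTL peaks within 100 kb of a TSS of the AP-1 family were lost, with a Wilson interval up to 14.3%, beside 12.1% of all wide peaks of the same widths, and 0 of 8 near RUNX and ETS factors, with an interval up to 32.4%, beside 16.4%. With windows of 250 kb these shares were 9.38 and 5.88%. Each gene was counted by 1 TSS, the 5′ end of its annotated span. The 3 lost peaks inside the 1217 kb of RUNX1 lay outside both windows, so these counts do not cover them. Near Hippo pathway and TEAD genes 1 of 20 was lost (5.00% beside 10.4% at the same widths), 7.13 kb upstream of SAV1, a scaffold of the Hippo kinases, and near TGF-beta pathway genes 2 of 21 (9.52% beside 12.5%), both upstream of SMURF2, a ubiquitin ligase that limits the pathway, at 15.1 and 67.9 kb. Of mesenchymal transition factors, ZEB1 lost its single wide peak, 1 of 6 for the list (16.7% beside 6.90%).

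Ligands, receptors and the genes of movement follow, each with the share of all wide peaks of the same widths beside it. Near cytokines and chemokines 1 of 15 was lost (6.67% beside 8.12%), 27.0 kb from the TSS of IL4R, near proteases and the urokinase system 1 of 23 (4.35% beside 11.5%), at PLAUR, near extracellular matrix genes 1 of 21 (4.76% beside 11.5%), 57.7 kb from POSTN, which codes for periostin, and near receptor kinases and caveolins 0 of 28, with a Wilson interval up to 12.1%, beside 9.45%. Near ERK feedback genes 1 of 37 was lost (2.70%, interval 0.479 to 13.8%, beside 6.81%), that of DUSP1, and with windows of 250 kb the share was 10.4%. Near integrin, adhesion and actin genes 2 of 61 were lost, 3.28% with an interval of 0.904 to 11.2%, 21.7 kb from MYO10, an unconventional myosin of filopodia, and 23.5 kb from TPM1, a tropomyosin. All wide peaks of these widths were lost at 10.6%, within that interval, and with windows of 250 kb the share near these genes was 7.78%. Near luminal identity genes 0 of 2 were lost, and no wide peak lay near genes of acetyltransferases and coactivators.

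Genes whose RNA moved with siFra-1 differed by their direction. The study listed genes lowered or raised by the same siRNA mix on expression arrays, which are not analysed here and come from other samples of the same cells. Of 194 wide siCTL peaks within 100 kb of a TSS of a lowered gene 38 were lost (19.6%, interval 14.6 to 25.7%), and of 146 near a raised gene 5 were lost (3.42%, 1.47 to 7.77%), beside 15.0% of all wide peaks. The difference was 16.2 percentage points (Newcombe interval 9.56 to 22.6), and 16.5 points (10.3 to 22.7) with the peaks near raised genes weighted to the widths of those near lowered ones. It was seen in both width classes, with 25 of 65 against 4 of 54 at 250 or 300 bp (38.5 and 7.41%) and 13 of 129 against 1 of 92 at 350 bp and over (10.1 and 1.09%). All wide peaks of the same widths were lost at 11.8 and 13.2%. With windows of 250 kb the share near raised genes was 10.4%. Of the wide siFra-1 peaks, 23.7% near lowered genes (49 of 207) and 36.9% near raised genes (130 of 352) had no siCTL overlap, beside 31.9% of all. Peaks near 1 gene are not independent, and 2 wide peaks lay near genes of both lists.

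The 38 lost peaks belonged to 35 lowered genes, and those named next were chosen after their values were seen. AP-1 was present in 17 of the 38 (44.7%) against 36.5% of the other lost peaks weighted to their widths (difference 8.25 points, interval -8.63 to 25.1). A siFra-1 peak lay within 1 kb of 16 (42.1%) against 29.2% of the others, weighted likewise (difference 12.9 points, interval -3.70 to 29.5). Both intervals include 0. Genes of adhesion and movement among them were CD44, the hyaluronan receptor, with 1 of 2 wide peaks lost, SEMA4B, a semaphorin, ABLIM3, an actin binding protein, RAP2B, a small GTPase, and MYO10. The nearest siFra-1 peak lay 0.9 kb from the CD44 peak, 77.1% of whose words are repeated, and 0.05 kb from that of SEMA4B. It abutted the peak of ABLIM3, and lay 11.8 and 34.5 kb from those of RAP2B and MYO10. Survival genes were MCL1 and BCL2A1, both anti-apoptotic members of the BCL2 family, with lost peaks of 400 and 250 bp at 34.1 and 61.5 kb holding 2 and 1 AP-1 motifs. Their nearest siFra-1 peaks lay 1.75 and 0.35 kb away. SPNS2, an exporter of sphingosine-1-phosphate, lost both of its wide peaks, 5.42 and 5.77 kb from the TSS with the nearest siFra-1 peaks 46.9 and 46.5 kb away. These 2 peaks lie side by side over 0.650 kb and may be 1 split element. ATG7, an autophagy enzyme gene, also lost both, and ZBTB38 lost 2 of 3. The nearest siFra-1 peaks lay 0.75 and 0.15 kb from the lost peaks of ATG7, and 36.0 and 0.45 kb from those of ZBTB38. Of the raised genes, CMIP, DOCK3, PIP5KL1, SDC4 and ZNF404 each had 1 lost peak nearby, the peak of DOCK3 with 3 AP-1 motifs in an intron of MAPKAPK3.

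Among the genes whose promoters the study used as viewpoints for chromatin contacts, 4 of 26 wide peaks near genes lowered with siFra-1 were lost. This is 15.4% with a Wilson interval of 6.15 to 33.5%, which includes the 10.5% of all wide peaks of the same widths. Near genes raised 0 of 26 were lost, with a Wilson interval up to 12.9%, which includes the 8.21% of all wide peaks of the same widths. The 4 belong to CDCP1, HMGA1, MYO10 and PITPNC1, a phosphatidylinositol transfer protein gene, at 20.8, 6.48, 21.7 and 13.8 kb from their TSSs, and these 4 peaks are among the 38 near lowered genes of the arrays. In the same order, their nearest siFra-1 peaks lay 0.1, 0.7, 34.5 and 30.9 kb away. CDCP1 kept 4 of its 5 wide peaks and HMGA1 1 of 2, while MYO10 lost the single one. Of 29 wide siCTL peaks that touched a region listed as contacting a viewpoint promoter, 1 was lost (3.45%, interval 0.611 to 17.2%). This stands beside 15.0% of all wide peaks, a share not matched for width. Of the 29, 28 touched a region listed as bound by Fra-1, the lost one among them. The lost peak is 250 bp wide and contacts MYO10 (chr5:17127752-17128001), with no AP-1 motif and a siFra-1 peak at 2.45 kb.

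**Figure D5:**
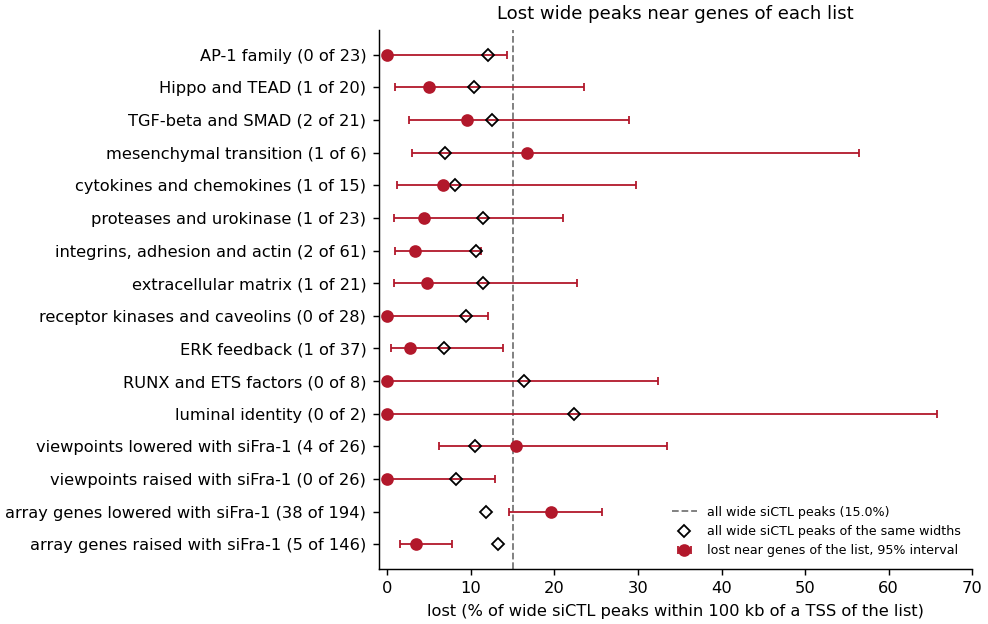
Share of wide siCTL peaks within 100 kb of a TSS of each gene list that were lost (%), with 95% Wilson intervals (red), the share at which all wide peaks of the same widths were lost (diamonds) and the overall 15.0% (dashed line). Numbers beside each list give lost of all wide peaks, from 0 of 23 for the AP-1 family to 38 of 194 for array genes lowered with siFra-1.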

How the data were processed

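ChIP-seq of p300/CBP was done after siCTL or siFra-1 transfection of MDA-MB-231 cells. The authors aligned reads to hg19, with BWA-backtrack by their methods and Bowtie2 by the submitters' processing notes, scaled the signal and subtracted background in bins of 50 bp with PASHA, and thresholded it at 25 in the Integrated Genome Browser, allowing gaps of 50 bp. The deposited lists hold interval coordinates only. How complex or enriched each library was, and how it was scaled, affects which peaks pass, and this cannot be told apart from occupancy.

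Starts were raised by 1 for printing. Genes came from GENCODE release 44 lifted to GRCh37 (20098 protein-coding genes on the 23 chromosomes used). Both strands of whole peaks were searched for motif consensus sequences with Python 3.11.15, pandas 2.3.3, numpy 2.4.6 and pysam 0.24.0, and genome counts of 24-base words with numba 0.67.0. Functions were tested on simulated data. Shares have Wilson intervals, and differences of lost and kept peaks, the kept weighted to the width classes of the lost, have normal-approximation intervals, at 95%. Gene lists covered 100 kb around 1 TSS per gene, the 5′ end of its annotated span. Named peaks were the 12 widest, the 5 with the most AP-1 motifs, those at promoters, in genes or runs with 3 or more, and those near genes of the pathway lists and viewpoints, except on chromosome 8. 1 of these peaks is not reported here. The members and lists were chosen with earlier results of these data known. Leaving out peaks with at least 25% of repeated words was added after the data were seen.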

Additional observations from a re-analysis of the deposited data

How the results depend on the processing

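TEAD and NF-kB kept their direction and an interval without 0 under all 8 alternatives (TEAD -22.4 to -11.6 points), CAGGTG under 7 of 8 (3.47 without width weighting, interval -0.63 to 7.57) and clustering under 8 of 9, where it was 7.80 once peaks of a class within 10 kb were reduced to 1, which removes kept neighbours by construction, and -10.7 without peaks near gaps. The NF-kB value rests on 4 lost peaks, that of TEAD on 122, so the NF-kB intervals are approximate. The lost share was 5.01% at 350 bp and over and 12.8% with a siFra-1 peak within 200 bp counted as shared.

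The AP-1 difference was -5.17 points with that 200 bp rule, -6.51 without peaks near large assembly gaps, -12.7 without width weighting, -4.90 against peaks overlapped by a wide siFra-1 peak, -6.09 with 1 peak per 10 kb, -6.22 for TGANTCA, all with intervals below 0, and 1.31 at 350 bp and over. The difference for 2 or more AP-1 motifs was 2.59 without peaks near gaps, 2.51 with 1 peak per 10 kb and 2.06 in the central 200 bp, with intervals including 0, and -1.13 without weighting, and it was 12.2 at 350 bp and over. The GC difference was -1.03 without peaks near gaps and -0.90 unweighted, with intervals below 0, and 0.026 against wide siFra-1 overlap. The promoter difference lost its interval above 0 at 350 bp (0.51), without peaks near gaps (2.57), with 1 peak per 10 kb (1.60), with 1 kb windows (1.03) and with TSSs of all genes (3.42). The difference beyond 100 kb from a TSS did so at 350 bp (-0.92), without peaks near gaps (-2.00), unweighted (-2.41), with 1 peak per 10 kb (-2.24) and without repeated sequence (-1.62). The share between genes differed by 1.52 points without peaks near gaps and by -5.63 against wide siFra-1 overlap.

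Motif differences below 0 numbered 3 at 350 bp and 11 without weighting, and those above 0 numbered 0 without weighting, in place of 5 and 1. At 350 bp the CRE was added (-0.923), but only 2 lost peaks of any width hold it. That is too few for the normal-approximation interval, so no difference is read from it. RUNX (-8.87), ETS (-2.25) and forkhead (-4.76) had intervals including 0 at 350 bp. Small motif differences turned at 350 bp for extended AP-1 (3.53) and C/EBP (4.25, and 0.171 with the 200 bp rule), for the CRE (0.046 against wide overlap, 0.015 in 200 bp), for SMAD in 200 bp (-0.094), and unweighted for the GC box (-3.36), GATA (-2.48) and CTCF (-0.087). Near array genes lowered and raised with siFra-1, 10.1 and 1.09% were lost at 350 bp and over, and 10.4% near raised genes with 250 kb windows. The causes were not tested. No paired analysis was possible because each condition has 1 library, and with no counts or heights neither depth nor signal could be compared.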
